A study of Mus musculus with 6 samples.

Results

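The transcription factors at the core of the heart's gene programme were followed here in hearts of mouse embryos with and without Rnd3, namely Nkx2-5, Gata4, Gata5, Gata6, Hand1, Hand2, Mef2a, Mef2c, Mef2d and Srf. Members were the probe sets that the platform's annotation gives to exactly 1 gene and that gene is on this list, which found 29 probe sets for all 10 genes among 34945 probe sets for 18193 genes. The study measured heart tissue at E10.5 with an Affymetrix whole-genome expression array, 3 arrays of wild-type (WT) and 3 of knockout (KO) heart tissue, 6 in all. Both groups are of the C57BL/6N background. The KO carries a global gene trap of Rnd3, also called RhoE, in every tissue, and those embryos die at this stage or soon after it, per the series' design text. That text also speaks of littermate pairs, but no label ties an array to a litter or says how many hearts an array holds. Each p-value is thus set by the variation among these arrays, which may be technical in part, and their number limits the precision.

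Nkx2-5 is a homeodomain protein, Gata4, Gata5 and Gata6 are zinc finger proteins, Hand1 and Hand2 are basic helix-loop-helix proteins, and the Mef2 proteins and Srf share the MADS domain. They bind DNA together in the cardiac progenitors and the looping heart, switch on one another and the contractile genes, and loss of several of them in mice stops heart development. Srf binds the CArG box and is driven by actin signalling through its coactivators Mrtfa and Mrtfb. Rnd3 itself restrains the kinase ROCK1, which acts on the actin cytoskeleton.

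The members' own promoters were searched for motifs known for these factors. Of the 3 windows that follow, those of Srf and Mef2a hold a match to the motif of their own protein. A window of Mef2c is shown because it is the member with the lowest p. RefSeq windows of 300 bases (250 before and 50 after a start site, GRCm38.p6) were matched for 7 of the 10 members, 9 windows in all, 3 of them for Mef2c. The windows of Srf (chr17:46556113-46556412, minus strand), Mef2a (chr7:67372809-67373108, minus strand) and the second of Mef2c (chr13:83523406-83523705, plus strand) read 5′ to 3′, with CArG boxes, MEF2 sites and GATAA in capitals:
Srf: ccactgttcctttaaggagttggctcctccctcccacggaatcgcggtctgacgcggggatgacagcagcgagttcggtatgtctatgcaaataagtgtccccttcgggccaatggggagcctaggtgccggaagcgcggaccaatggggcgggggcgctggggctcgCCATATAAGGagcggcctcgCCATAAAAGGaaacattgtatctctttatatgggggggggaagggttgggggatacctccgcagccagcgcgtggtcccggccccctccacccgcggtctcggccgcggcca
Mef2a: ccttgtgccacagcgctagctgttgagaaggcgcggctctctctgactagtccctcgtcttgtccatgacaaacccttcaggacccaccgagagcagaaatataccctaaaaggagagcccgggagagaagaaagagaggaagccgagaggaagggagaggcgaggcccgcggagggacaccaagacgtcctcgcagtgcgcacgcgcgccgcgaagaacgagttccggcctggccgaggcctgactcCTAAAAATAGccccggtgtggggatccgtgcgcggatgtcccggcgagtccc
Mef2c: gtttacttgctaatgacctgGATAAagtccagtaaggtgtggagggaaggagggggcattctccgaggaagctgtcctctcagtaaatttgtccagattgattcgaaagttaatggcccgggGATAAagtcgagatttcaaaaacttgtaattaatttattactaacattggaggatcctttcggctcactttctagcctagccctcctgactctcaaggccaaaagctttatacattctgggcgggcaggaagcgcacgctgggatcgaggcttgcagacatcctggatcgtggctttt

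The Srf window holds 2 CArG boxes, CCATATAAGG and CCATAAAAGG, whose first bases lie at -82 and -62 from the start site. CArG boxes were found in 1 of the 7 members and in 1.63% of 32851 windows. The Mef2a window holds a MEF2 site, CTAAAAATAG, which begins at -2; 1 of the 7 members and 3.19% of all windows hold one. GATAA, or its reverse complement TTATC, lay in the windows of 2 members, Mef2c at -230 and -128 and Hand2 at -214 and -172, against 25.4% of all windows. For Mef2c this was the window shown, and its other windows hold none of the marked motifs. A member counts if any of its windows has a match, while the shares over all are of single windows. The NKX motif TNAAGTG was in no member's window, against 11.5% of all, and the E-box CANNTG was in the windows of 4 members, against 72.3%. Both strands were searched, and the marked motifs do not overlap one another in these windows. A match is a description of the letters only; which start site these hearts used was not analysed here.

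None of the 10 factors passed the test between KO and WT hearts. Mef2c came nearest, at 0.765 of its WT level, and Gata6 was the one factor whose brightest probe set read higher on every KO array. Nkx2-5 was lower on every KO array, mostly through 1 of the 3. The other factors overlapped between the groups. In limma (linear models on log2 signal with Benjamini-Hochberg adjustment over all 12712 tested genes, threshold 0.05), 0 of 10 passed, against 1.27% of all tested genes (0.787% higher and 0.488% lower in KO). At an unadjusted p below 0.05 there were 2 of 10, against 20.3% of all: Mef2c lower, against 11.8%, and Gata6 higher, against 8.54%. The groups did not overlap for 3 of 10, against 26.3%, with KO lower for Nkx2-5 and Mef2c (15.5% of all genes) and higher for Gata6 (10.8%). All 10 genes passed the filter on dim probe sets. Their median log2 fold change was -0.13, with 9 of 10 negative, beside -0.04 and 56.2% negative over all tested genes. Without KO array 2, the median was -0.04 with 7 of 10 negative, beside -0.03 over all. Signals are MAS5 intensities on a linear scale, a gene is represented by its probe set with the highest mean, and intervals are limma's 95% intervals, not adjusted for the number of genes. Levels of different genes are not comparable between probe sets.

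**Figure D1:**
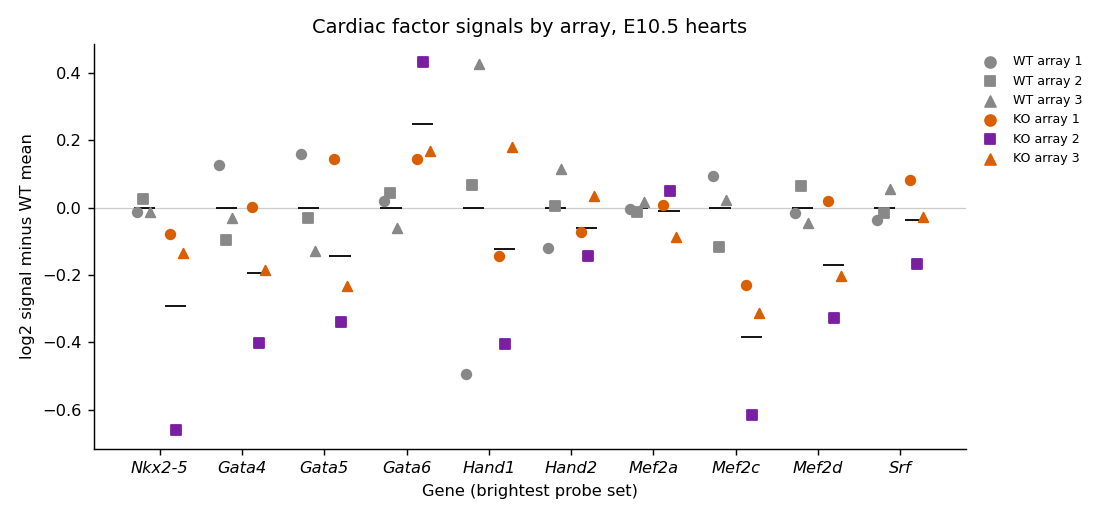
The log2 signal of each factor's brightest probe set on every array, minus the mean of the 3 WT arrays, is plotted by gene; short lines are group means. KO array 2 (purple squares) is the lowest of the 6 arrays for 7 of the 10 genes, and KO array 1 lies within the WT range for 6.

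Before the single factors, the arrays themselves need a description. The brightest Rnd3 probe set read 862 to 954 on the WT arrays and 5.89, 12.3 and 121 on KO arrays 1, 2 and 3. Array weights estimated by limma gave KO array 2 the lowest weight, 0.486, against 0.828 to 1.79. Its log2 signals correlated with the others at r = 0.970 to 0.976, a range that overlaps the 0.974 to 0.978 of KO array 3. KO arrays 2 and 3 each read below the WT range for 37.8% of all tested genes, and for 7 and 6 of the 10 factors. KO array 2 was the lowest of the 6 arrays for 7 of the 10 factors and the highest for 2, against 26.3% and 22.3% of all tested genes. This array was singled out after its values were seen. It was also the lowest for 7 of 9 cardiomyocyte markers. Summed, those 9 markers read 202464 to 220289 on the WT arrays, and 213804, 184690 and 205696 on KO arrays 1, 2 and 3. All 9 were above the low-signal limit, so heart muscle is present on every array, but fewer cells of a type and less RNA per cell cannot be told apart in such samples. Xist, a mark of female tissue, read 10251 to 12474 on the WT arrays and 539, 8884 and 28.4 on KO arrays 1, 2 and 3, and the Y-linked gene Uty read 105 to 192 in WT and 594, 297 and 532 in KO. Genotype and sex of the tissue are thus partly confounded, and the part of sex in the values that follow was not tested beyond a fit with Xist as a covariate, which leans on KO array 2 (weight 0.869).

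Nkx2-5, the homeodomain factor that acts earliest in the cardiac lineage, had signals of 2331, 2390 and 2331 on the WT arrays against 2224, 1486 and 2141 on the KO arrays. The WT values lay within a factor of 1.03 of each other, and all 3 KO values were below them, KO array 2 by far the most. The log2 fold change was -0.29 (SE 0.14, interval -0.60 to 0.01, adjusted p = 0.262). Without KO array 2 it was -0.11 (adjusted p = 0.545), so most of the difference came from that array. With each array centred on its cardiomyocyte markers the value was -0.23 (adjusted p = 0.400). It was larger without KO array 1 (-0.40, adjusted p = 0.111), without KO array 3 (-0.37, adjusted p = 0.268) and with the Xist covariate (-0.57, adjusted p = 0.0753).

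Gata4, the zinc finger factor that partners with Nkx2-5 and Tbx5, read 1446, 1239 and 1295 on WT arrays, against 1324, 1002 and 1164 on KO. KO arrays 2 and 3 were below the WT range and KO array 1 inside it. The log2 fold change was -0.20 (SE 0.12, interval -0.46 to 0.07, adjusted p = 0.390); it was -0.29 without KO array 1 and -0.09 without KO array 2. A much dimmer Gata4 probe set gave -0.02 with overlapping groups.

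Gata5, which is expressed mainly in the endocardium and its precursors, read 1392, 1219 and 1139 on WT and 1377, 985 and 1059 on KO arrays, again with KO array 1 inside the WT range. Its log2 fold change was -0.14 (SE 0.14, interval -0.44 to 0.16, adjusted p = 0.593). It was -0.29 without KO array 1, -0.04 without KO array 2 and -0.06 without WT array 1. The other Gata5 probe set had 616, 692 and 582 in WT and 581, 450 and 549 in KO. There the groups just missed overlapping, by the margin between 582 and 581, with a log2 fold change of -0.26 (adjusted p = 0.330 over all tested probe sets).

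Gata6, which acts redundantly with Gata4 in the myocardium and is also a factor of the endoderm, went the other way on its brightest probe set. It read 4305, 4384 and 4073 on WT arrays, against 4702, 5733 and 4777 on KO, all 3 KO values above the WT range. The log2 fold change was 0.25 (SE 0.09, interval 0.04 to 0.45, adjusted p = 0.172), and 0.16 without KO array 2. Its other probe sets did not share the direction: the second read 1002, 900 and 816 on WT and 842, 912 and 787 on KO arrays, a log2 fold change of -0.09. The third, dimmer one read 213, 212 and 123 on WT arrays, against 113, 145 and 125 on KO, a log2 fold change of -0.48 (SE 0.24, adjusted p = 0.321). With the probe sets averaged, Gata6 changed sign, to -0.11. Markers of liver and yolk sac endoderm, tissue that also uses Gata4 and Gata6, summed to 1655 to 7674 on the WT arrays and 472 to 2166 on the KO arrays. Most of each WT sum came from Afp, the alpha-fetoprotein gene, with 1116, 2496 and 6054 on WT and 216, 1074 and 2.78 on KO arrays. Of 9 markers 7 were tested, and all 7 had a negative log2 fold change, against 56.2% of all tested genes. Only for Alb and Afp did the groups not overlap. The part of these markers in the Gata values was not tested.

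Hand1 marks the outer curvature of the left ventricle and Hand2 the right ventricle, the outflow tract and neural crest cells. Hand1 read 182, 269 and 345 on WT and 233, 194 and 291 on KO arrays, so that the WT arrays alone differed by a factor of 1.89 and spanned every KO value. Its log2 fold change was -0.12 (SE 0.23, interval -0.63 to 0.39, adjusted p = 0.802). Hand2 read 4961, 5410 and 5840 on WT arrays, against 5126, 4881 and 5516 on KO, a log2 fold change of -0.06 (SE 0.09, interval -0.25 to 0.13, adjusted p = 0.735). The dimmer probe set of Hand1 was above the low-signal limit on 3 of 6 arrays. Of the 3 Hand2 probe sets, the second gave -0.21 (adjusted p = 0.668), and the third was above the limit on 1 array and was the only member probe set left untested.

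Mef2c, a MADS factor with roles in the anterior heart field, the outflow tract and the right ventricle among other parts, had the lowest p of the 10. It read 2855, 2468 and 2720 on WT and 2284, 1747 and 2153 on KO arrays, every KO array below every WT array. The log2 fold change was -0.39 (SE 0.11, interval -0.63 to -0.14, adjusted p = 0.0981). It passed the threshold without KO array 1 (-0.46, adjusted p = 0.0416) and at an adjusted p of 0.10. In those settings 916 and 805 of all 12712 tested genes passed, against 162 in the main fit. Without KO array 2 the log2 fold change of Mef2c was -0.27 (adjusted p = 0.174). Over 20 alternatives it ran from -0.55 to -0.23, always negative, with adjusted p from 0.0416 to 0.355.

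The 5 Mef2c probe sets did not read alike. A dimmer one read 1412, 1042 and 986 on WT arrays, against 828, 720 and 951 on KO, also without overlap, with a log2 fold change of -0.45 (SE 0.15, adjusted p = 0.163). The second read 2397, 2070 and 2002 on WT and 2059, 2109 and 2195 on KO arrays, a log2 fold change of -0.02 (SE 0.10, interval -0.23 to 0.20). The remaining 2 each gave -0.14 with overlapping groups. The brightest probe set and the flat second one were designed from the same accession per the platform's annotation, and where in the transcript each lies was not analysed here.

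Mef2a, the broadly expressed MADS factor that dominates in the postnatal heart, was the flattest factor on its brightest probe set, with 4724, 4701 and 4800 in WT and 4766, 4910 and 4466 in KO. The log2 fold change was -0.01 (SE 0.08, interval -0.18 to 0.16, adjusted p = 0.959). The next 3 probe sets were higher in KO on average, with log2 fold changes of 0.36, 0.27 and 0.35. The second read 2596, 2185 and 2179 on WT arrays, against 2432, 3556 and 2995 on KO: KO arrays 2 and 3 lay above every WT array, and KO array 1 inside the WT range. It missed the threshold (SE 0.13, adjusted p = 0.203) and was the only member probe set to pass without KO array 1 (0.50, SE 0.12, adjusted p = 0.0479). In the fit by gene, leaving out that array raised the calls over all genes from 162 to 916. Another, dim probe set of Mef2a, above the limit on 5 arrays, had 4.57 on WT array 3 and 44.8 to 60.9 on the other arrays, which sets its log2 fold change of 1.15 (SE 0.87).

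Mef2d, a further MADS factor present in many tissues, read 1587, 1678 and 1556 on WT and 1628, 1279 and 1394 on KO arrays, a log2 fold change of -0.17 (SE 0.11, interval -0.41 to 0.07, adjusted p = 0.405). It was -0.27 without KO array 1 and -0.09 without KO array 2. Its other probe sets gave -0.01 and -0.21 with overlapping groups. Srf read 1037, 1050 and 1103 on WT arrays, against 1125, 947 and 1042 on KO, a log2 fold change of -0.04 (SE 0.10, interval -0.26 to 0.19, adjusted p = 0.870). This probe set carries the Affymetrix suffix that marks probes that can match transcripts of more than one gene. The other Srf probe set had 557, 540 and 508 in WT and 566, 300 and 490 in KO, so that KO array 2 alone carried its log2 fold change of -0.29 (SE 0.20, adjusted p = 0.486). The brightest probe sets of Mef2a and Srf change sign under centring, at 0.04 and 0.01 with arrays centred on the tested genes. The median of all tested genes is then 0.01.

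Over all member probe sets, 28 of 29 were tested, each on its own in a limma fit over 23339 probe sets. None of the 28 passed, against 0.63% of all, and 4 had an unadjusted p below 0.05, against 17.8%. Groups did not overlap for 5 of 28, against 23.9% of all probe sets; KO was lower for 4 (13.5% of all) and higher for 1 (10.4%). Of the 28, 23 were negative, 5 of them from Mef2c, and 5 were positive. The negative share over all tested probe sets was not counted. Probe sets of 1 gene on the same arrays are not independent, and by gene 9 of 10 were negative, against 56.2% of all tested genes. Of the 9 factors with several tested probe sets, 2, Gata6 and Mef2a, had probe sets of both signs; among all 6091 such genes the share was 55.7%. KO array 2 was the lowest array for 11 of the 28, against 23.5%.

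**Figure D2:**
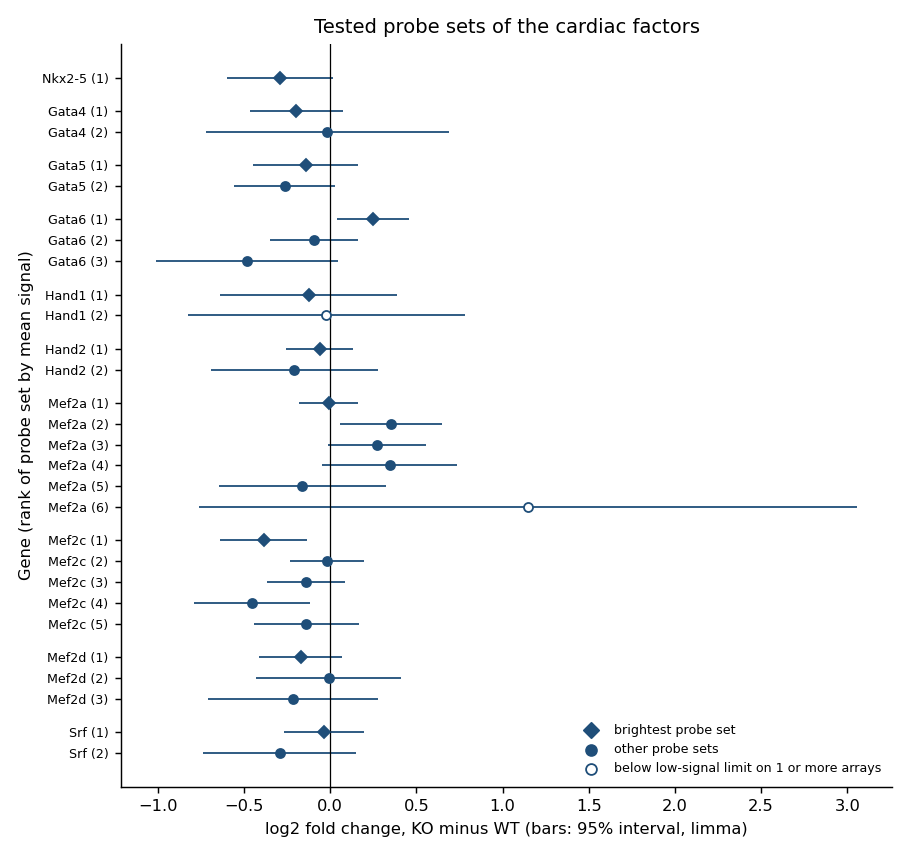
Log2 fold changes (KO minus WT) of the 28 tested member probe sets with 95% intervals, ordered by gene and by mean signal. For Mef2c the values run from -0.45 to -0.02, and Gata6 and Mef2a have values on both sides of 0.

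**Figure D3:**
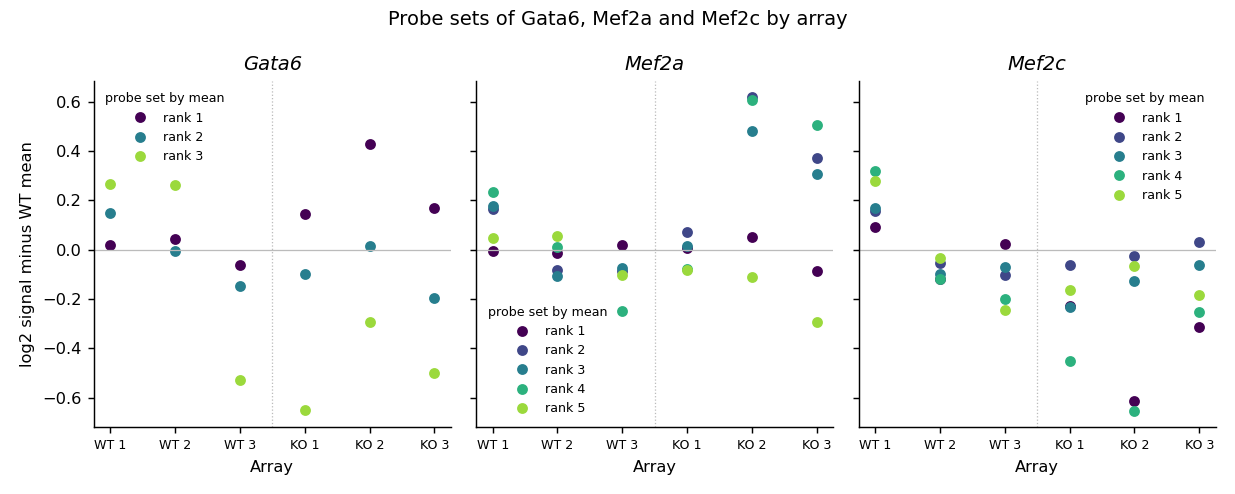
The probe sets of Gata6, Mef2a and Mef2c that were above the low-signal limit on all 6 arrays, as log2 signal minus the WT mean on each array. The Mef2a probe sets ranked 2 to 4 by mean signal read high on KO arrays 2 and 3, while the brightest stays near 0.

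Ratios of 2 family members on the same array do not depend on how the array was scaled, so 7 of them were compared with a two-sided exact permutation test over the arrays. With 3 against 3 the smallest possible p is 0.1, so no ratio could pass. The log2 ratio of Mef2c to Mef2a was -0.73, -0.93 and -0.82 on the WT arrays and -1.06, -1.49 and -1.05 on the KO arrays, lower on all 3 KO arrays, and the difference is -0.23 without KO array 2 (with it -0.38, exact p = 0.1, adjusted over 7 ratios 0.35). The log2 ratio of Gata6 to Gata4 was 1.57, 1.82 and 1.65 in WT and 1.83, 2.52 and 2.04 in KO. Here the groups were separated only by the step from 1.82 to 1.83, with a difference of 0.44 (exact p = 0.1, adjusted 0.35), which is 0.25 without KO array 2. With probe sets averaged the Gata6 to Gata4 difference vanished (-0.0025), while that of Mef2c to Mef2a was -0.55. The Mef2a average includes its dim probe set, with 4.57 on WT array 3 and a log2 fold change of 1.15, so -0.55 is not firm. The other 5 ratios overlapped between the groups, with differences from -0.21 for Mef2c to Mef2d to 0.39 for Gata6 to Gata5.

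**Figure D4:**
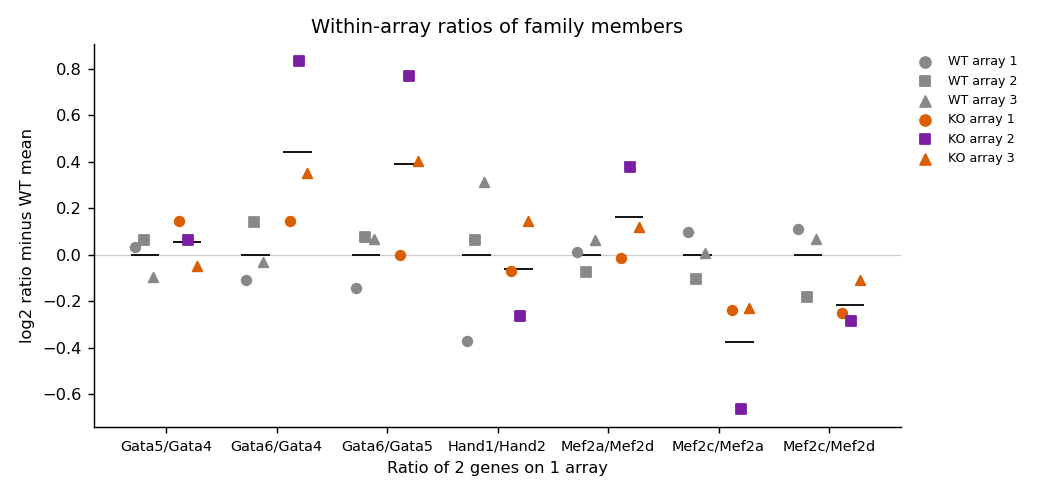
Log2 ratios of family members within each array, minus the WT mean, for 7 pairs of genes; short lines are group means. The Mef2c to Mef2a ratio is lower on all 3 KO arrays, and KO array 2 has the largest shift in that ratio and in the Gata6 ratios.

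Genes that work with these factors were set beside them. Of 29 partners and regulators of the factors, all tested, 0 rose and 0 fell; 3 higher and 6 lower genes had an unadjusted p below 0.05, against 8.54% and 11.8% of all tested genes. Of the 29, 24 were negative, against 56.2% of all, with a median of -0.15 beside -0.04 over all. The median of the 29 was -0.09 to -0.10 under the 3 centrings and with the Xist covariate. Centring shifts all genes of an array alike. Over all tested genes the median became 0.02 with median centring and 0.01 centred on tested genes. KO array 2 was the lowest for 11 of the 29, against 26.3% of all genes. Smarcd3, the chromatin remodelling subunit that helps Gata4 and Tbx5 reach their targets, read 3730, 3644 and 3703 on WT and 3361, 2549 and 2862 on KO arrays, a log2 fold change of -0.35 (SE 0.10, adjusted p = 0.101). Isl1, the LIM homeodomain factor of the second heart field, read 1121, 1169 and 1082 on WT arrays, against 598, 800 and 1000 on KO (-0.52, SE 0.16, adjusted p = 0.106). The acetyltransferase gene Kat2b went the other way, with 1842, 1732 and 1867 in WT and 1983, 2684 and 2334 in KO (0.35, SE 0.11, adjusted p = 0.121). Without KO array 1, 3 partners passed, 2 higher and 1 lower, beside 916 of all 12712 tested genes.

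Of 6 further members of the same families (Gata1, Gata2, Gata3, Mef2b, Nkx2-3 and Nkx2-6), 5 were tested and none passed, with 2 lower at an unadjusted p below 0.05, against 11.8% of all tested genes. Nkx2-6, an Nkx2-5 relative of the pharynx and caudal heart, read 123, 102 and 121 on WT and 70.1, 19.3 and 99.1 on KO arrays (-1.17, SE 0.51, adjusted p = 0.228). The 19.3 on KO array 2 is below that array's low-signal limit of 50.2, so the -1.17 is not firm. Gata2, a factor of blood and endothelium, read 504, 456 and 517 on WT arrays, against 418, 429 and 379 on KO (-0.27, SE 0.12, adjusted p = 0.234). Gata1, the erythroid factor, was at 0.16 with overlapping groups (adjusted p = 0.794). Mef2b did not reach the low-signal limit on any array.

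Among 27 tested genes known as cardiac targets of the factors, 1 rose and 0 fell (background 0.787% and 0.488%), and the median was 0.02. At an unadjusted p below 0.05, 7 were higher and 4 lower, against 8.54% and 11.8% of all genes. The gene that rose, the natriuretic peptide gene Nppb, is a known Gata4 and Nkx2-5 target; it read 4737, 4812 and 4422 on WT and 6435, 11245 and 10541 on KO arrays (0.97, SE 0.17, adjusted p = 0.0360). That call was lost when any of WT arrays 1, 2 or 3, or KO array 2 or 3, was left out. Calls over all genes then fell from 162 to 0, 0, 4, 65 and 2, in that order. The Nppb call was also lost with cardiomyocyte centring, with the Xist covariate, without the intensity trend, without the filter and with probe sets averaged. There the calls over all genes were 2, 6, 1, 1 and 0. Without KO array 1 there were 7 calls in this list, 5 higher and 2 lower, and 916 over all 12712 tested genes. The next by p was Ckm, the muscle creatine kinase gene, which read 63.3, 48.0 and 67.4 on WT arrays, against 109, 148 and 227 on KO, with 1 WT array below the low-signal limit (1.38, SE 0.31, adjusted p = 0.0542). Nppa, the other natriuretic peptide gene, read 19291, 21193 and 23003 on WT arrays, against 23553, 24366 and 27483 on KO (0.25, SE 0.08, adjusted p = 0.132). Myh6, the alpha myosin heavy chain, was lower on every KO array, with 37438, 38790 and 38018 in WT and 36172, 29549 and 30842 in KO (-0.25, SE 0.08, adjusted p = 0.109).

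Of 23 tested cytoskeletal and immediate early targets of Srf, 0 rose and 0 fell. At an unadjusted p below 0.05, 2 were higher and 4 lower, against 8.54% and 11.8% of all genes. Their median was -0.03, beside -0.04 over all tested genes. With arrays centred on the tested genes it was 0.02, beside 0.01 over all. Vcl, the focal adhesion protein vinculin, read 8279, 8892 and 7975 on WT and 7070, 7165 and 7383 on KO arrays (-0.22, SE 0.07, adjusted p = 0.137). Ccn1, a matrix protein gene, had -0.43 (SE 0.15, adjusted p = 0.141) with overlapping groups. Myl9, the regulatory myosin light chain of smooth muscle and nonmuscle cells, read 17839, 17915 and 17647 on WT arrays, against 20002, 19701 and 19601 on KO (0.15, SE 0.06, adjusted p = 0.187). Among these 3 genes with the smallest p the direction thus differed. Without KO array 1, 2 targets of this list passed, 1 higher and 1 lower, beside 916 of all 12712 tested genes.

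**Figure D5:**
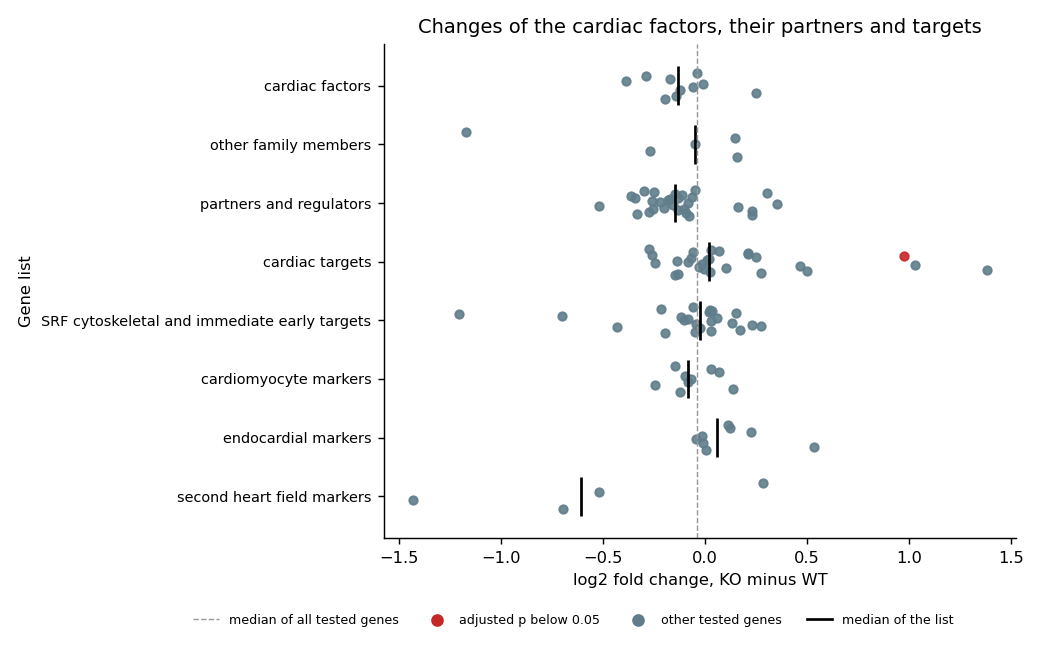
Log2 fold changes (KO minus WT) of the tested genes of 8 lists (the cardiac factors, other family members, partners, cardiac targets, SRF targets and cardiomyocyte, endocardial and second heart field markers), 1 point a gene, with the list's median as a black bar and the median of all tested genes, -0.04, as a dashed line. Among the lists plotted, Nppb at 0.97 is the only gene past the threshold, and the cardiac factors lie between -0.39 and 0.25.

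The genes whose pattern over the 6 arrays was most like that of Mef2c were Usp28, a deubiquitinase gene (Pearson r = 0.9955), Wwc1, which encodes the Hippo pathway protein Kibra (r = 0.9955), and Ube4b, a ubiquitin ligase gene (r = 0.9946). These are the highest values among the tested genes over 6 arrays, which share the low reading on KO array 2, and are a description only. Usp28 read 2003, 1728 and 1939 on WT and 1559, 1225 and 1543 on KO arrays, a log2 fold change of -0.40 (SE 0.12, adjusted p = 0.0976).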

How the data were processed

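The authors deposited signal intensities on a linear scale for 45037 probe sets beside controls; the submitters' processing notes name MAS5 and the Affymetrix Expression Console, with no version or setting. Every array had a mean of about 500 after trimming 2% at each end, so the deposited intensities are scaled per array. The 64 control probe sets were left out, and values were taken to log2. The low-signal limit is each array's 40th percentile (44.5 to 52.8), a working choice, not a measured background. A gene's brightest probe set was tested if above the limit on 3 of 6 arrays. KO was compared with WT in limma 3.58.1 (R 4.3.3, intensity trend, threshold 0.05), checked on simulated data, and ratios with scipy 1.17.1. Gene names came from the platform's annotation (34945 probe sets with 1 symbol, 932 with several, 9160 unnamed here). The members and lists were chosen with earlier results of these data known. Named are all members, Rnd3, Xist and Uty of the sex-linked genes, list genes past the threshold or otherwise up to 3 with the smallest p, and the 3 genes most like the member with the lowest p. Afp, Ckm, Fgf8, Fgf10, Mef2b, Myh6 and Nppa were added after their values were seen. Same-numbered WT and KO arrays had deviations from their group means that correlated at 0.0182, 0.0573 and 0.0150. For arrays of different number the values ran from -0.0371 to 0.0206. Such values from 3 arrays a group cannot decide whether the numbers mark litters, and the main fit is unpaired. Alternatives covered scaling, filters, choice of probe set, intensity trend, weights per array, a replicate block, Xist and each array left out; the last 2 centrings, on tested genes and on cardiomyocyte markers, were added after seeing the data.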

Additional observations from a re-analysis of the deposited data

How the results depend on the processing

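No factor passed under 18 of 20 alternatives. The count of factors past the threshold was 0 to 1 with an array left out, the 1 being Mef2c without KO array 1, and 1 at an adjusted p of 0.10, again Mef2c. Member probe sets numbered 0 to 1 with an array left out. All genes past the threshold numbered 162. With an array left out they numbered 0, 0 and 4 (WT arrays 1, 2 and 3) and 916, 65 and 2 (KO arrays 1, 2 and 3). The count was 805 at an adjusted p of 0.10, 83 with median centring (80.7% higher, against 61.7% in the main setting), 312 centred on tested genes (81.1% higher) and 2 centred on cardiomyocyte markers. It was 1 without the intensity trend, 542 with array weights, 6 with the Xist covariate, 1 without the filter, 291 with the limit on all 6 arrays, 0 with probe sets averaged and 83 with each probe set tested. With replicate block, 189 genes and 0 factors passed, so the block changed no call on a factor. Because no label gives pairs, the numbers are not taken as pairs in the main fit. Signs turned for small values. With probe sets averaged, Gata6 had -0.11, Hand2 0.027 and Mef2a 0.32, and the ratios Gata5 to Gata4 and Gata6 to Gata4 differed by -0.10 and -0.0025. The averages of Hand2 and Mef2a include their dimmest probe sets. Mef2a had 0.049 with median centring, 0.040 centred on tested genes, 0.050 centred on cardiomyocyte markers and 0.065 with the Xist covariate; Srf had 0.021, 0.012 and 0.022 under the same 3 centrings. Leaving out an array moved Hand1 from -0.37 to 0.090, Mef2a from -0.039 to 0.029, Srf from -0.10 to 0.027 and the Hand1 to Hand2 ratio from -0.25 to 0.094. The cause of each was not tested. The low-signal limit leaves the dimmest probe sets of Hand1, Hand2 and Mef2a without a firm value.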

Other observations

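Markers of the other cell types in these hearts gave the following values. Of 6 epicardial markers, all tested, none passed, and their summed signal was 9177 to 9527 on the WT arrays and 10142, 10518 and 6436 on KO arrays 1, 2 and 3; KO array 2 was the highest for 5 of the 6, against 22.3% of all genes. Of the 6, 3 were negative, and the median was -0.0024, with a range of -0.24 to 0.21 when an array was left out. Upk1b, a uroplakin gene of the epicardium, had the smallest p of them (limma -0.56, SE 0.20, adjusted p = 0.150). Of 8 endocardial markers none passed (median 0.06), and KO array 2 was the highest for 4 of them (22.3% of all genes); Emcn, the endothelial sialomucin endomucin, read 723, 756 and 625 on WT arrays, against 778, 1237 and 1083 on KO (limma 0.54, SE 0.16, adjusted p = 0.101).

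Of 4 second heart field markers, none passed and 3 were negative (median -0.61, but -0.33 without KO array 1); Fgf8 and Fgf10 were above the low-signal limit on 1 KO array each, so their values are not firm. The sum of the 4 was 1289 to 1452 in WT and 757, 984 and 1211 on KO arrays 1, 2 and 3, without overlap, and Isl1 gave most of it. Of 7 cushion mesenchyme markers none passed (median -0.11, 6 of 7 negative; -0.06 without KO array 1 and -0.21 without KO array 2). Of 6 tested foregut epithelium markers none passed, and Krt8, a keratin gene, read 3240, 3006 and 3563 on WT and 2987, 1248 and 2556 on KO arrays (-0.62, SE 0.25, adjusted p = 0.193). The other markers of that list were far dimmer, with WT means from 9.75 to 136. Whether the Krt8 signal comes from foregut tissue was not tested. Of 5 tested erythroid markers none passed (median 0.02), as was true of the 3 tested neural crest markers (median 0.15) and the 1 tested skeletal muscle precursor marker (0.12). Of 7 tested liver and yolk sac endoderm markers, Alb, the serum albumin gene, passed with lower signal in KO (limma adjusted p = 0.049997). It read 87.8, 148 and 183 on WT arrays, against 51.9, 36.8 and 20.7 on KO, where 1 of 3 arrays was above the low-signal limit, so no fold is given. That call was lost when any of WT arrays 1, 2 or 3, or KO array 2 or 3, was left out. Calls over all genes then fell from 162 to 0, 0, 4, 65 and 2, in that order. The other 6 markers did not pass.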
